A study of Mus musculus with 2 samples.

Results

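Efferocytosis is the removal of dying cells by phagocytes. The 10 genes described here are 5 engulfment receptors (*Mertk*, *Axl*, *Tyro3*, *Timd4* and *Stab1*), 3 secreted bridging molecules (*Gas6*, *Pros1* and *Mfge8*), and the pair *Cd47* and *Sirpa*, whose contact restrains engulfment. They were chosen by symbol, and all 10 were among the 33696 genes counted in both libraries. A dying cell exposes phosphatidylserine on its surface. TIM-4 (*Timd4*) and stabilin-1 (*Stab1*) bind this lipid directly, whereas the TAM receptors TYRO3, AXL and MERTK reach it through GAS6 and protein S (*Pros1*), and integrins reach it through MFG-E8 (*Mfge8*). CD47 on a living cell engages SIRPα on the phagocyte and holds engulfment back. In the arterial wall, macrophages are the main phagocytes, and smooth muscle cells can also take up dying neighbours.

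Abdominal aortas were collected on day 28 from 5-month-old male C57BL/6J mice. The Control group received normal saline. The AngII+HS group received angiotensin II from an osmotic minipump together with drinking water containing 0.9% NaCl and 0.2% KCl. The labels give the number of mice in different ways. Their design text has tissue of 5 mice pooled for each of the 2 libraries, and their extraction text mentions 1 mouse for the control and 2 for AngII with salt. Each library is a single sample, so the spread from mouse to mouse is unknown, no difference below has a replicate check, and no test between the groups was possible.

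After filtering, 10269 Control cells (75294050 UMIs, which are unique molecules counted, with a median of 7274 per cell) and 19734 AngII+HS cells (80581691 UMIs, median 3065.5) remained. They were grouped into 10 cell types found in both libraries, with plasma cells found in the AngII+HS library only and 733 and 646 cells left unnamed. VSMCs numbered 5630 and 1104 in the Control and AngII+HS libraries, fibroblasts 1965 and 4277, macrophages 459 and 4443, neutrophils 99 and 4658, and VECs 838 and 1203. The barcode lists of the libraries shared 67 barcodes. Each list held as many barcodes as the matrix of the other library, so the matrices were taken as recorded, and an exchange of the 2 matrices would turn every direction given here around. The level of a gene is its UMIs summed over the cells of a type and scaled to all UMIs of those cells (CPM). Intervals are 95% intervals for counting error only. The log2 ratio is AngII+HS over Control. RNA released from broken cells adds UMIs to all droplets, so B cells, which should lack these genes apart from *Cd47*, are given for comparison. The summed level of 6 macrophage markers in B cells was 17.6 CPM in Control and 82.8 CPM in AngII+HS cells. That of 5 VSMC markers was 1007 and 862 CPM, and that of 5 fibroblast markers 150 and 715 CPM.

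**Figure D1:**
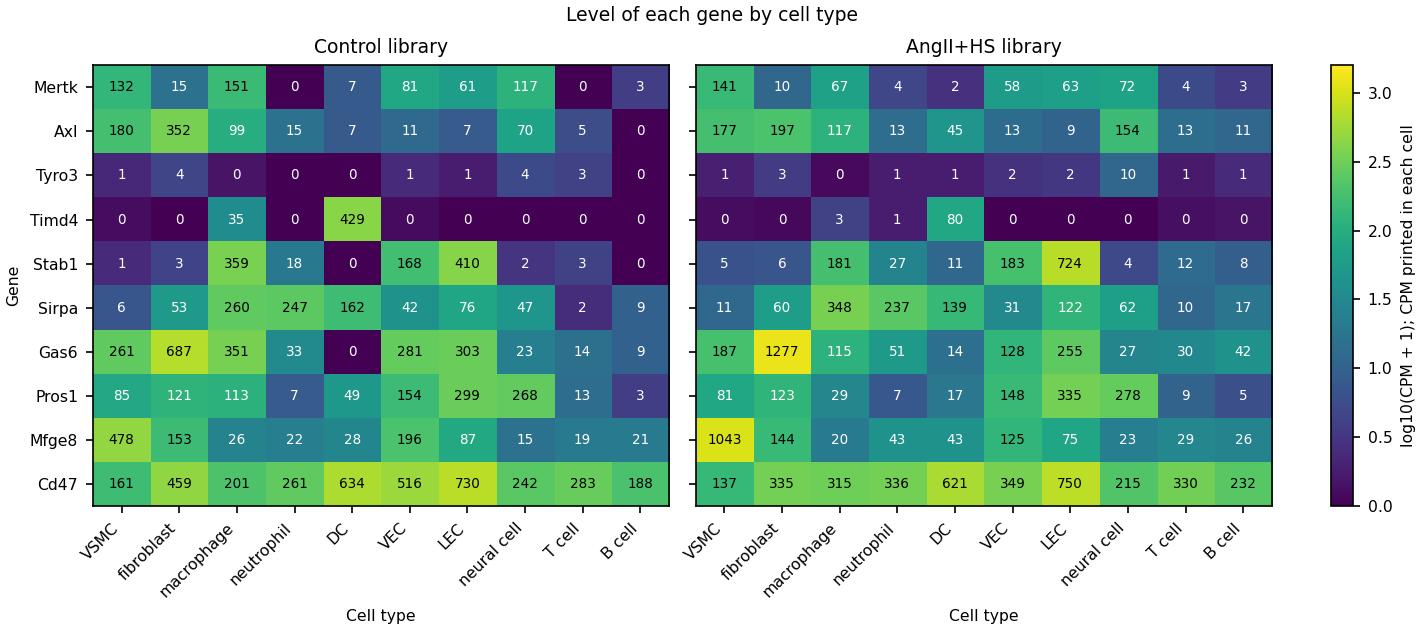
Level of the 10 genes (rows) in 10 cell types (columns) in the Control and AngII+HS libraries. Colour is log10(CPM + 1) and the printed values are CPM. *Mfge8* was highest in VSMCs, *Gas6* in fibroblasts, *Stab1* in LECs and *Timd4* in DCs in both libraries, and the DC column of the Control library rests on 25 cells.

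*Mertk*, the TAM receptor most used by macrophages for engulfment (chromosome 2, 128540729 to 128645080 on the plus strand, GRCm39), was present in both muscle and immune cells of the aorta. In VSMCs it stood at 132 CPM (129 to 135, 7368 UMIs) in Control and 141 CPM in AngII+HS cells (133 to 150, 1074 UMIs). In macrophages it stood at 151 CPM (135 to 168, 326 UMIs) and 66.7 CPM (63.2 to 70.4, 1310 UMIs), a log2 ratio of -1.18 (-1.35 to -0.999). The level in VSMCs was thus nearly the same in both libraries, while that of macrophages was lower in the AngII+HS library. The macrophage log2 ratio was -0.48 with the mix of macrophage subclusters held at that of Control, and 1.52 when the libraries were merged without integration, which left a cluster led by *Cd163* unnamed. VECs stood at 81.3 and 57.7 CPM, LECs at 61.5 and 63.3 CPM and neural cells at 117 and 71.8 CPM. Fibroblasts, at 14.6 and 10.3 CPM, were the lowest of the cell types of the vessel wall. B cells held 1 UMI in the Control and 6 in the AngII+HS library (2.94 and 2.74 CPM), far below VSMCs and macrophages. In order of the mean of both libraries, VSMCs (137 CPM) came before macrophages (109 CPM), neural cells (94.3 CPM), VECs (69.5 CPM) and LECs (62.4 CPM). In the Control library macrophages were the higher of the first 2, with intervals that met, whereas in the AngII+HS library VSMCs were higher and the intervals were apart.

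A *Mertk* UMI was found in 63.2% of Control and 48.2% of AngII+HS VSMCs, whose median depths were 9653 and 5849 UMIs. With every cell thinned to 1000 UMIs, the expected shares were 12.004% and 14.5%, so the direction of the raw shares went with depth. In macrophages the share was 38.8% and 16.7% (14.2% and 5.53% thinned), at median depths of 4390 and 4066 UMIs. Among B cells it was 1% and 0.604%, at 3010 and 1983.5 UMIs.

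*Axl*, a TAM receptor that binds GAS6 (chromosome 7, 25456535 to 25488329, minus strand), was highest in fibroblasts. These stood at 352 CPM (340 to 365) in Control and 197 CPM in AngII+HS cells (192 to 202), a log2 ratio of -0.84 (-0.90 to -0.77). VSMCs stood at 180 and 177 CPM, with a log2 ratio of -0.02 (-0.11 to 0.06), so a difference was not detectable there. Macrophages stood at 98.7 CPM (85.8 to 113) and 117 CPM (113 to 122). Neural cells stood at 70.1 CPM (48.2 to 98.4) and 154 CPM (133 to 178). VECs and LECs stood between 7.28 and 12.6 CPM, near the 10.5 CPM of AngII+HS B cells. *Axl* and *Mertk* therefore differed among the endothelial cells, where *Mertk* was well above the B cell level and *Axl* was not. The fibroblast difference was largest in 1 of the 3 fibroblast clusters with more than 1 cell in both libraries. In the cluster led by *Ptx3* and *Sfrp4*, *Axl* stood at 479 CPM in 884 Control cells and 209 CPM in 1634 AngII+HS cells, and in the cluster led by *Dio2* and *Tnfrsf11b* at 245 and 233 CPM. The cluster led by *Comp* and *Fmod* stood at 215 and 153 CPM, and its log2 ratio of -0.49 lay between those of the other 2. Another cluster, led by *Prg4* and *Mmp13*, held 1 Control cell and 163 AngII+HS cells and stood at 160 CPM in the latter. The mix of cells within the fibroblast clusters was not held constant.

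*Tyro3*, the third TAM receptor (chromosome 2, 119628214 to 119648738, plus strand), was nearly absent. The whole Control library held 121 UMIs and the AngII+HS library 136 (1.61 and 1.69 CPM). Macrophages held 1 and 4 UMIs. Neural cells had the highest level, 4.25 CPM (0.514 to 15.3, 2 UMIs) and 10.5 CPM (5.59 to 17.9, 13 UMIs), with overlapping intervals. *Tyro3* was under the limit of 20 UMIs in macrophages, neutrophils and VECs, so no ratio was read there.

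Macrophages were clustered again to see which of them carried the receptors. The subcluster with resident markers such as *Lyve1* and *Folr2* made up 74.9% of the Control macrophages (344 cells) and 21.9% of the AngII+HS macrophages (972 cells). The *Arg1* subcluster held 3 Control cells and 1737 AngII+HS cells (39.1%). Of the other subclusters, one led by *Ly6a* and *Irf7* held 24 and 883 cells, one led by *Gpnmb* and *Trem2* held 23 and 486, and the monocytes numbered 40 and 251. The smallest were led by cell-cycle genes (5 and 89 cells), by *Marco* and *Cd209b* (0 and 25 cells), and by *Retnla* at low depth (20 and 0 cells). The cells were clustered without the 10 genes, but their levels follow from the same cells, so differences among subclusters are descriptions.

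**Figure D2:**
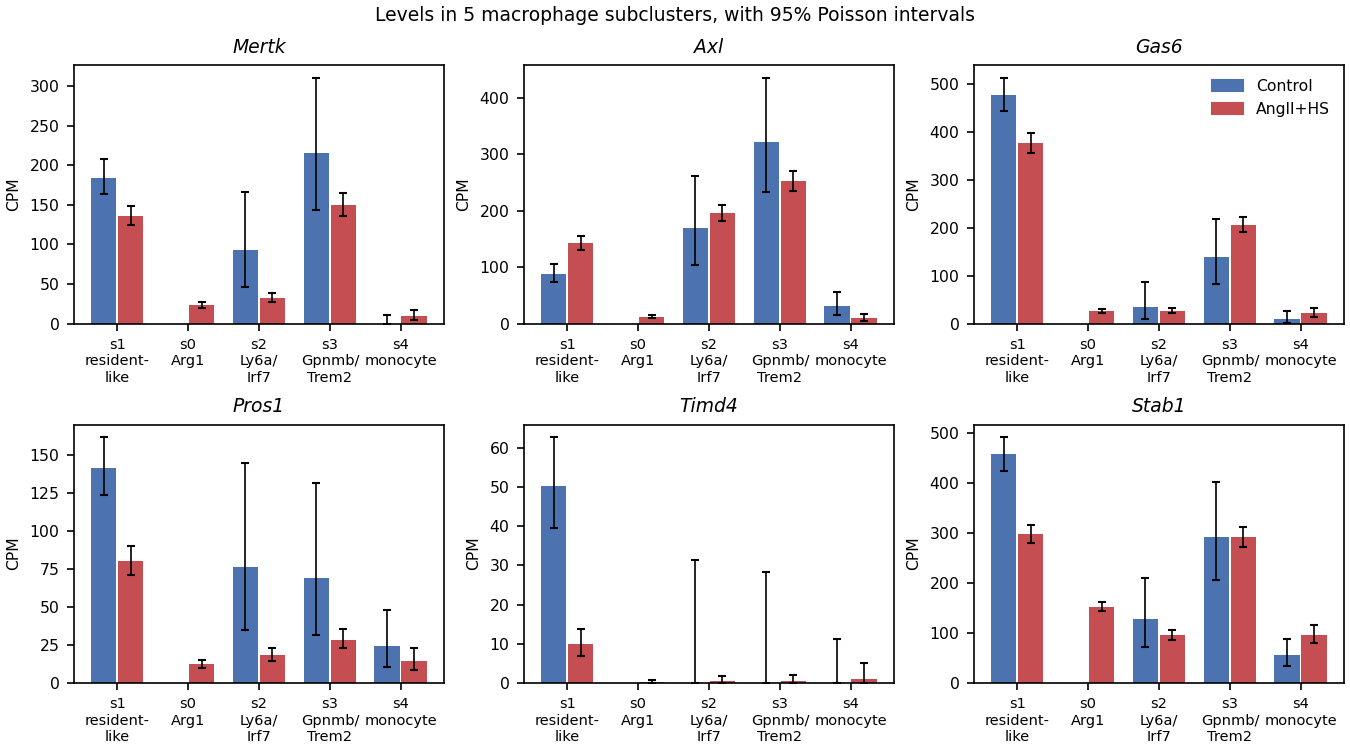
Level of 6 genes (CPM) in 5 macrophage subclusters of the Control and AngII+HS libraries, with 95% Poisson intervals. Groups under 20 cells are not drawn, which leaves out the 3 Control cells of the *Arg1* subcluster. Among the AngII+HS subclusters drawn, *Mertk*, *Axl* and *Gas6* were low in both the *Arg1* and the monocyte ones. *Timd4* was near 0 outside the resident-like one among those drawn.

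*Mertk* stood at 184 CPM (163 to 207) in Control and 136 CPM (124 to 149) in AngII+HS resident-like macrophages. In the *Gpnmb* and *Trem2* subcluster it stood at 215 CPM (143 to 311) and 150 CPM (136 to 165). In the AngII+HS library the *Arg1* subcluster stood at 23.3 CPM (19.9 to 27.1) and the *Ly6a* and *Irf7* subcluster at 32.0 CPM. The monocytes held 0 UMIs in Control and 11 in AngII+HS cells (9.82 CPM). Within the AngII+HS library, the resident-like level was thus several times that of the *Arg1* subcluster. The 25 *Marco* and *Cd209b* cells were highest, at 561 CPM (428 to 722), with a *Mertk* UMI in 80.0% of them.

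*Axl* was spread differently over the same subclusters. The AngII+HS resident-like macrophages stood at 142 CPM (130 to 155), against 88.6 CPM (74.2 to 105) in the Control library, a log2 ratio of 0.68 (0.40 to 0.97). This direction is opposite to that of *Mertk* in these cells, whose log2 ratio was -0.44 (-0.66 to -0.22). The *Ly6a* and *Irf7* subcluster, low in *Mertk*, stood at 170 and 196 CPM, and the *Gpnmb* and *Trem2* subcluster at 323 and 252 CPM. The AngII+HS *Arg1* subcluster stood at 11.9 CPM (9.46 to 14.7) and the AngII+HS monocytes at 9.82 CPM (4.90 to 17.6). Both are close to the 10.5 CPM of B cells in that library.

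The macrophage differences were recomputed with the AngII+HS levels weighted by the subcluster mix of the Control library, over the 6 subclusters with cells in both. The log2 ratio of *Mertk* was then -0.48, against -1.25 as measured over these subclusters, and that of *Gas6* was -0.31 against -1.62. *Pros1* stood at -0.88 against -2.03 and *Stab1* at -0.53 against -0.997. *Timd4* kept the largest difference, with -2.30 against -4.12.

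*Timd4* (chromosome 11, 46701620 to 46735177, plus strand) was the most restricted of the receptors. The Control library held 158 UMIs in all and the AngII+HS library 295. Macrophages stood at 35.2 CPM (27.7 to 44.1, 76 UMIs) and 3.21 CPM (2.47 to 4.11, 63 UMIs), a log2 ratio of -3.46 (-3.96 to -2.95). All 76 Control macrophage UMIs were in resident-like cells, of which 16.3% had a UMI. In the AngII+HS library 2.67% of resident-like cells had one (4.50% and 0.969% thinned), and the level was 50.3 CPM (39.6 to 62.9) and 9.89 CPM (6.85 to 13.8). Of the 63 AngII+HS macrophage UMIs, 23 were in the 25 *Marco* and *Cd209b* cells, at 215 CPM. B cells held 0 UMIs in the Control library, which allows up to 8.81 CPM by 3 counts, and 1 UMI in the AngII+HS library.

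DCs, the antigen-presenting cells marked by *Flt3* and *Zbtb46*, held more *Timd4* per UMI than macrophages in both libraries. They stood at 429 CPM (328 to 552, 61 UMIs in 25 cells) in Control and 80.4 CPM in AngII+HS cells (70.1 to 91.9, 218 UMIs in 520 cells). A UMI was found in 9 of the 25 Control DCs and in 61 of the 520 AngII+HS DCs, and a single cell held up to 16 and 26 UMIs. Of the 9 Control cells, 6 also held *Clec9a* and 4 *Xcr1*, genes of type 1 conventional DCs, against 1 and 0 of the 16 Control DCs without a *Timd4* UMI. Of the 61 AngII+HS cells, 11 held *Clec9a*, 4 held *Xcr1* and 39 held *Ccr7*, which marks mature migratory DCs, against 40, 31 and 244 of the 459 without. Of the macrophage genes, *Folr2* was at 0 UMIs in these cells of both libraries. *Csf1r*, the receptor for macrophage growth factor, was found in 0 of the 9 and 8 of the 61. *Adgre1* was found in 2 of the 9 and 2 of the 61, *Lyve1* in 1 and 1, and *Cd163* in 1 and 0. The Control DCs are under the minimum of 50 cells, and the mix of DC kinds was not held constant.

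*Stab1* (chromosome 14, 30860970 to 30890598, minus strand) marked endothelial cells as well as macrophages. LECs stood at 410 CPM (375 to 448) in Control and 724 CPM in AngII+HS cells (668 to 783), a log2 ratio of 0.82 (0.65 to 0.99). The share of LECs with a UMI was 81.2% and 86.6% (32.0% and 51.0% thinned). Macrophages stood at 359 CPM (335 to 386) and 181 CPM (175 to 187), a log2 ratio of -0.99 (-1.10 to -0.88), just short of 2-fold. It was -0.53 with the Control mix of subclusters and 0.85 when the libraries were merged without integration. Resident-like macrophages stood at 457 and 297 CPM, the *Gpnmb* and *Trem2* subcluster at 292 and 291 CPM, and the AngII+HS *Arg1* subcluster at 152 CPM. Unlike *Axl*, *Stab1* was therefore well above the B cell level (8.23 CPM) in the *Arg1* subcluster. The 25 *Marco* and *Cd209b* cells, high in *Mertk* and *Timd4*, held 0 *Stab1* UMIs.

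VECs as a whole stood at 168 CPM (156 to 181) and 183 CPM (173 to 194) for *Stab1*, with intervals that overlap. With the mix of VEC subclusters held at that of Control, the log2 ratio was 0.60, against 0.12 as measured over the subclusters with cells in both libraries. Among their subclusters, 2 with arterial markers were higher in the AngII+HS library, at 244 and 386 CPM (log2 ratio 0.66, 0.43 to 0.89) and at 180 and 375 CPM (1.06, 0.81 to 1.32). The third arterial subcluster stood at 64.3 and 74.5 CPM and capillary cells at 47.8 and 49.4 CPM, with no detectable difference at this depth. Of the venous subclusters, the larger stood at 179 and 125 CPM and the smaller at 252 and 331 CPM. In VSMCs *Stab1* stood at 1.45 and 5.40 CPM, and the macrophage gene *C1qa* stood there at 1.47 and 19.6 CPM. B cells held 0 *Stab1* UMIs in the Control library and stood at 8.23 CPM in the AngII+HS library, and the part of free RNA in the VSMC difference was not tested.

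*Sirpa*, the receptor for CD47 (chromosome 2, 129434039 to 129474148, plus strand), was highest in myeloid cells. Closely related *Sirpb1* genes exist in the mouse, so its counts are uncertain where reads could be shared. Macrophages stood at 260 CPM (239 to 283) in Control and 348 CPM in AngII+HS cells (340 to 356), a log2 ratio of 0.42 (0.29 to 0.55). Neutrophils stood at 247 CPM (191 to 313) and 237 CPM (225 to 249), and DCs at 162 and 139 CPM. The macrophage subclusters of the AngII+HS library lay between 226 CPM in monocytes and 448 CPM in the *Gpnmb* and *Trem2* subcluster. The *Arg1* subcluster, low in *Mertk*, *Axl* and *Gas6*, stood at 318 CPM (305 to 331). Outside myeloid cells, LECs (76.1 and 122 CPM) and fibroblasts (53.1 and 60.3 CPM) were above B cells (8.81 and 16.9 CPM), and VSMCs (6.17 and 11.2 CPM) were not.

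*Cd47* (chromosome 16, 49620896 to 49735373, plus strand) was found in every cell type. It was highest in LECs, at 730 CPM (683 to 779) and 750 CPM (693 to 810), and in DCs, at 634 and 621 CPM. It was lowest in VSMCs, at 161 CPM (158 to 165) and 137 CPM (129 to 146). VECs stood at 516 and 349 CPM, a log2 ratio of -0.57 (-0.65 to -0.48), and fibroblasts at 459 and 335 CPM, a log2 ratio of -0.45 (-0.51 to -0.40). Macrophages went the other way, at 201 CPM (183 to 221) and 315 CPM (307 to 323), a log2 ratio of 0.64 (0.50 to 0.79). Within resident-like macrophages the log2 ratio was 0.55 (0.34 to 0.77). With the Control mix of subclusters, the macrophage value was 0.40, so the direction was the same. Neutrophils stood at 261 and 336 CPM and T cells at 283 and 330 CPM.

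**Figure D3:**
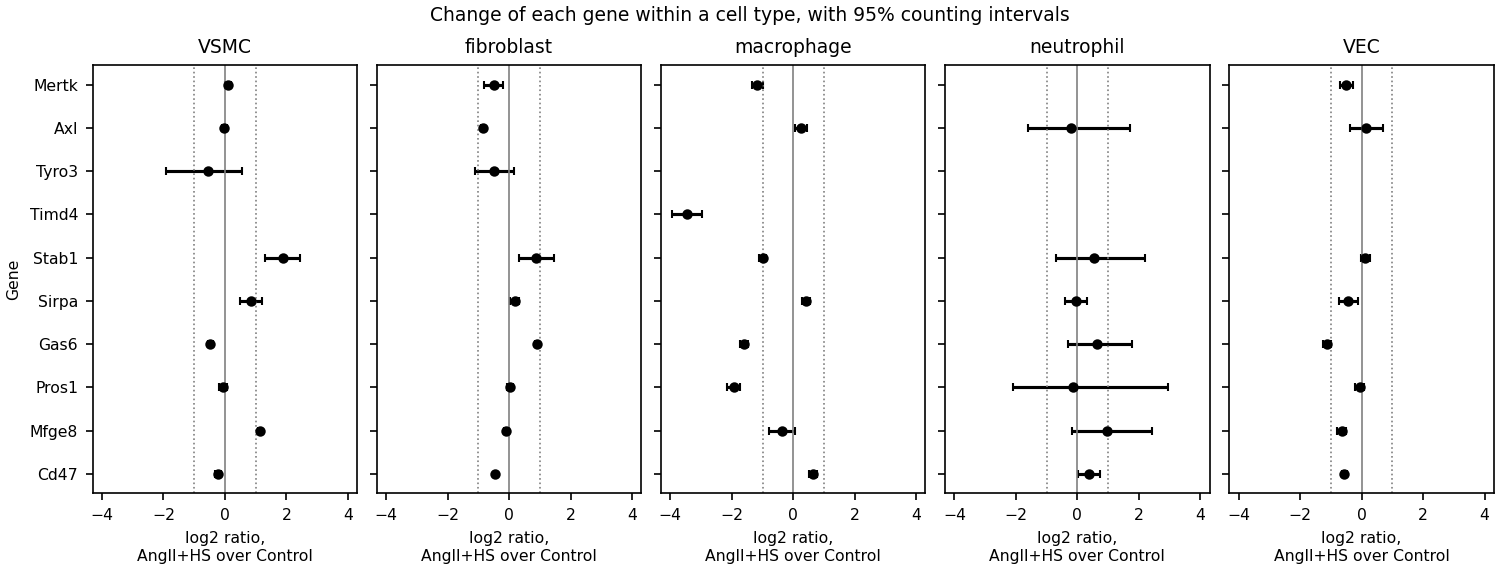
Log2 ratio (AngII+HS over Control) of the 10 genes in the 5 main cell types, with 95% counting intervals. Genes under 20 UMIs in a cell type, or with 0 UMIs there in 1 library, are left out. The solid line is 0 and the dotted lines mark 2-fold. *Mertk*, *Gas6*, *Timd4* and *Pros1* lie beyond 2-fold on the lower side in macrophages, and *Gas6* does in VECs. *Mfge8* and *Stab1* lie beyond it on the higher side in VSMCs, where *Stab1* was below the B cell level in the AngII+HS library.

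*Mfge8*, the bridge from phosphatidylserine to αv integrins (chromosome 7, 78783515 to 78798825, minus strand), was above all a VSMC gene. VSMCs stood at 478 CPM (473 to 484, 26672 UMIs) in Control and 1043 CPM in AngII+HS cells (1020 to 1066, 7921 UMIs), a log2 ratio of 1.12 (1.09 to 1.16). The share of VSMCs with a UMI was 93.4% and 86.7%, and after thinning 36.4% and 56.5%, so the thinned shares went the same way as the levels. VECs stood at 196 and 125 CPM, fibroblasts at 153 and 144 CPM and LECs at 87.4 and 75.0 CPM. Macrophages stood at 25.9 CPM (19.6 to 33.7) and 20.02 CPM (18.1 to 22.1), with intervals that overlap those of B cells (20.6 and 26.1 CPM), so a macrophage source was not detectable at this depth. *Gas6*, the ligand of all TAM receptors (chromosome 8, 13515371 to 13544824, minus strand), was highest in fibroblasts, at 687 CPM (670 to 704) and 1277 CPM (1263 to 1290). The regions around the start sites of *Mfge8* and *Gas6* are shown together because these are the bridging genes with the highest levels in stromal cells, and those of *Timd4* and *Stab1* because they are the members without a GC box. Each runs from 250 bases before to 50 bases after the start site, in the direction of the gene, from RefSeq on GRCm38.p6. They lie at chr7:79149011-79149310 (minus strand), chr8:13494486-13494785 (minus strand), chr11:46810549-46810848 (plus strand) and chr14:31168592-31168891 (minus strand). Capitals mark the GC box GGGCGG on either strand in the first 2, and the PU.1 core GAGGAA in *Stab1*.
Mfge8: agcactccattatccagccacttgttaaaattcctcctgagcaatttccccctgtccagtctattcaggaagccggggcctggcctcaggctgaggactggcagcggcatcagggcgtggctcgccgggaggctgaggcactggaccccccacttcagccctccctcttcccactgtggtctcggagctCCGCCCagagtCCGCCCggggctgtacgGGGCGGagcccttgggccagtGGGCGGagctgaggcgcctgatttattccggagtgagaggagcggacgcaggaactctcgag
Gas6: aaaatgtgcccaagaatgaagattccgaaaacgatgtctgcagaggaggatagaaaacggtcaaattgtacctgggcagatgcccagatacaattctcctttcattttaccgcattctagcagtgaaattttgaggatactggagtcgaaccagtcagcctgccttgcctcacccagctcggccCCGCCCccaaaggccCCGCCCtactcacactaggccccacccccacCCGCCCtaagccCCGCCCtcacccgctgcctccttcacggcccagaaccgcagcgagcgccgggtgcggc
Timd4: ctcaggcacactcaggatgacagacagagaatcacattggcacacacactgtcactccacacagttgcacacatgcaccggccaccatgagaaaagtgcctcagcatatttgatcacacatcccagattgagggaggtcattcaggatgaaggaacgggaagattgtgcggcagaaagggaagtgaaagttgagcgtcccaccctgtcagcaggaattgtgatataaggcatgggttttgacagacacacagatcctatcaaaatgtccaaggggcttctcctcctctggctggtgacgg
Stab1: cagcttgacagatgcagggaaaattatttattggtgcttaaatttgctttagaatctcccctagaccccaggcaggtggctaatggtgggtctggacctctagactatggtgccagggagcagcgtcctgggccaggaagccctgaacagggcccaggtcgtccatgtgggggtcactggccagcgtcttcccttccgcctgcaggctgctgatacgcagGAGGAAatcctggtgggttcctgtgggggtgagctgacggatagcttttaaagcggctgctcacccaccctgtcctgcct

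A promoter entry was found for 9 of the 10 genes. The GC box was present in 7 of these 9, and in 35.7% of all 32851 promoters of the same length. *Tyro3* held 6 matches, *Pros1* 5, *Mfge8*, *Gas6* and *Mertk* 4 each, *Cd47* 3 and *Axl* 2, and *Timd4* and *Stab1* held none. Overlapping matches were counted singly. Those of *Tyro3* at -1, 3 and 7 from the start site form 1 run, as do those of *Pros1* at -12 and -8. The PU.1 core was present in 3 of the 9 (*Axl*, *Mfge8* and *Stab1*) and in 28.3% of all promoters, and the E-box CANNTG in 5 of the 9 and 72.3% of all. The AP-1 motif TGANTCA (7.81% of all promoters) and the CArG box (1.63%) were in none of the 9. These motifs do not overlap in the matches printed. A match is a run of letters and not a bound site.

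The 4 clusters named VSMC did not share the *Mfge8* difference. The clusters led by *Pln* and *Notch3* (176 and 217 cells) and by *Erbb4* and *Thsd4* (357 and 214 cells) had 0 VSMC markers among their leading genes. The *Pln* and *Notch3* cluster was left unnamed, with pericyte markers among its leading genes, under the stricter filter, with no doublets removed, and with the members kept among the variable genes. A cluster led by *Erbb4* was also left unnamed under the stricter filter (112 and 105 cells) and when the libraries were merged without integration (334 and 209 cells). The cluster led by *Mylk4* and *Cnn1* stood at 471 CPM in 3410 Control cells and 1063 CPM in 457 AngII+HS cells, a log2 ratio of 1.17 (1.13 to 1.22). The cluster led by *Rgs5* and *Cnn1* stood at 470 and 1431 CPM, a log2 ratio of 1.61 (1.54 to 1.68). In the cluster led by *Erbb4* and *Thsd4*, whose cells had a median of 2187 UMIs, the values were 453 and 531 CPM, with a log2 ratio of 0.23 (-0.01 to 0.46). In the cluster led by *Pln* and *Notch3* they were 770 and 693 CPM, with a log2 ratio of -0.15 (-0.29 to -0.02). The higher level was thus found in the 2 clusters led by contractile genes. In the *Pln* and *Notch3* cluster, *Mertk* stood at 147 and 50.9 CPM (57 UMIs in the AngII+HS library), a log2 ratio of -1.53 (-1.98 to -1.10), and *Gas6* at 216 and 69.6 CPM, a log2 ratio of -1.63 (-2.01 to -1.27). In the *Erbb4* and *Thsd4* cluster *Mertk* went the other way, at 170 and 350 CPM, a log2 ratio of 1.04 (0.72 to 1.37). The *Mylk4* and *Cnn1* cluster, the largest, stood at 126 and 131 CPM for *Mertk*, a log2 ratio of 0.05 (-0.07 to 0.18). The *Rgs5* and *Cnn1* cluster stood at 140 and 186 CPM, a log2 ratio of 0.40 (0.21 to 0.59). The near equal *Mertk* level of all VSMCs was thus close to that of the largest cluster, and the other clusters differed in direction. VEC subclusters had *Mfge8* log2 ratios from -1.25 (-1.62 to -0.88) in the larger venous one to 0.01 (-0.28 to 0.30) in the arterial one with the *Stab1* log2 ratio of 1.06.

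**Figure D4:**
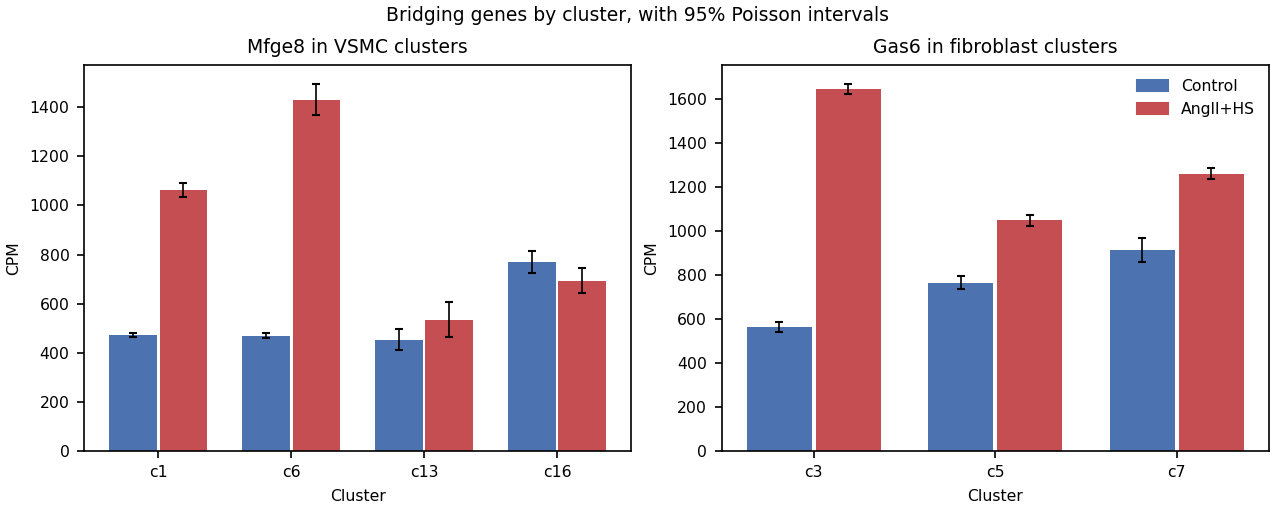
Level (CPM) of *Mfge8* in 4 VSMC clusters and of *Gas6* in 3 fibroblast clusters of the Control and AngII+HS libraries, with 95% Poisson intervals. Cluster c1 is led by *Mylk4*, c6 by *Rgs5*, c13 by *Erbb4*, c16 by *Pln*, c3 by *Ptx3*, c5 by *Dio2* and c7 by *Comp*. *Mfge8* was above 1000 CPM only in c1 and c6 of the AngII+HS library, and *Gas6* was higher in the AngII+HS library in all 3 fibroblast clusters.

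In fibroblasts the log2 ratio of *Gas6* was 0.89 (0.86 to 0.93), and a UMI was found in 71.8% and 85.4% of cells (40.5% and 55.1% thinned). The cluster led by *Ptx3* and *Sfrp4* stood at 563 CPM (541 to 586) and 1644 CPM (1621 to 1668), a log2 ratio of 1.55. The clusters led by *Dio2* and by *Comp* stood at 764 and 1048 CPM and at 910 and 1260 CPM, with log2 ratios of 0.46 and 0.47. The *Ptx3* and *Sfrp4* cluster, which had the largest *Axl* difference, was therefore the lowest of the 3 in the Control library and the highest in the AngII+HS library. The 163 AngII+HS cells of the *Prg4* and *Mmp13* cluster stood at 202 CPM (184 to 221), well below the others.

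In VECs, VSMCs and macrophages *Gas6* was lower in the AngII+HS library. VECs stood at 281 CPM (265 to 297) and 128 CPM (119 to 137), a log2 ratio of -1.13 (-1.27 to -1.004), and every one of the 6 named VEC subclusters was lower, with log2 ratios from -1.92 to -0.46. VSMCs stood at 261 and 187 CPM and LECs at 303 and 255 CPM. Macrophages stood at 351 CPM (326 to 376) and 115 CPM (110 to 120), a log2 ratio of -1.61 (-1.73 to -1.49). Resident-like macrophages stood at 478 CPM (444 to 514) and 378 CPM (357 to 399). In the AngII+HS library the *Arg1* subcluster stood at 26.0 CPM, that led by *Ly6a* and *Irf7* at 27.0 CPM and the monocytes at 21.4 CPM. All of these low values are below the 41.6 CPM of B cells in that library. Control B cells stood at 8.81 CPM, and the part of free RNA in these low levels was not tested.

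*Pros1* (protein S, chromosome 16, 62674275 to 62749710, plus strand) was highest in LECs, at 299 CPM (270 to 331) and 335 CPM (297 to 376), and in neural cells, at 268 CPM (223 to 319) and 278 CPM (250 to 309). The intervals of these 2 cell types overlap. VECs stood at 154 and 148 CPM, fibroblasts at 121 and 123 CPM and VSMCs at 84.9 and 80.9 CPM. A difference between the libraries was detectable in none of these 5 cell types taken whole. Within VSMCs the *Pln* and *Notch3* cluster had a log2 ratio of 0.74 (0.39 to 1.10). The *Erbb4* and *Thsd4* cluster had -0.81 (-1.41 to -0.24), and the clusters led by *Mylk4* and by *Rgs5* had -0.23 and -0.18. Macrophages differed, at 113 CPM (99.3 to 128) and 29.4 CPM (27.1 to 31.9), a log2 ratio of -1.94 (-2.16 to -1.72). Resident-like macrophages stood at 142 and 80.0 CPM, a log2 ratio of -0.82 (-1.09 to -0.56). The *Arg1* subcluster stood at 12.3 CPM, and the *Marco* and *Cd209b* cells at 336 CPM.

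The cell types that supplied the transcripts differed between the libraries, as the cell types themselves did. Of all *Mfge8* UMIs of the Control library, 91.2% (90.9 to 91.5%) were in VSMCs. In the AngII+HS library it was 57.0% (56.2 to 57.9%), from cells that gave 9.42% of all UMIs and 5.59% of the cells. Over all cells, *Mfge8* therefore stood at 388 CPM and 172 CPM, the opposite direction to that within VSMCs. Fibroblasts gave 28.2% of the *Mfge8* UMIs in the AngII+HS library, against 4.75% in the Control library. For *Gas6* the largest source was VSMCs in the Control library (61.6%) and fibroblasts in the AngII+HS library (83.5%). For *Pros1* it was also VSMCs (64.4%) and then fibroblasts (52.5%). VSMCs gave 74.1% of all Control UMIs, so their shares of *Gas6* and *Pros1* were below their share of all UMIs. Fibroblasts gave 33.7% of all AngII+HS UMIs, and their shares of both genes were above that. Macrophages gave 3.21% and 5.43% of the *Gas6* UMIs.

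Of the receptors, *Mertk* UMIs came from VSMCs in the Control library (88.5%) and from macrophages (40.6%) and VSMCs (33.3%) in the AngII+HS library. *Axl* UMIs came from VSMCs (73.4%) and fibroblasts (23.3%) in the Control library, and from fibroblasts (54.5%) and macrophages (23.5%) in the AngII+HS library. The *Axl* shares of Control VSMCs and AngII+HS macrophages were near their shares of all UMIs (74.1% and 24.4%). *Stab1* UMIs came from macrophages (35.9% and 60.9%), VECs (33.8% and 19.5%) and LECs (23.5% and 10.6%). *Sirpa* UMIs from macrophages made up 31.1% and 61.7%, and neutrophils gave 13.3% of those in the AngII+HS library. DCs gave 38.6% and 73.9% of the *Timd4* UMIs and macrophages 48.1% and 21.4%. *Cd47* UMIs came mostly from VSMCs in the Control library (51.3%), and fibroblasts were the largest source in the AngII+HS library (35.7%). Those cells gave 74.1% and 33.7% of all UMIs in the same libraries.

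**Figure D5:**
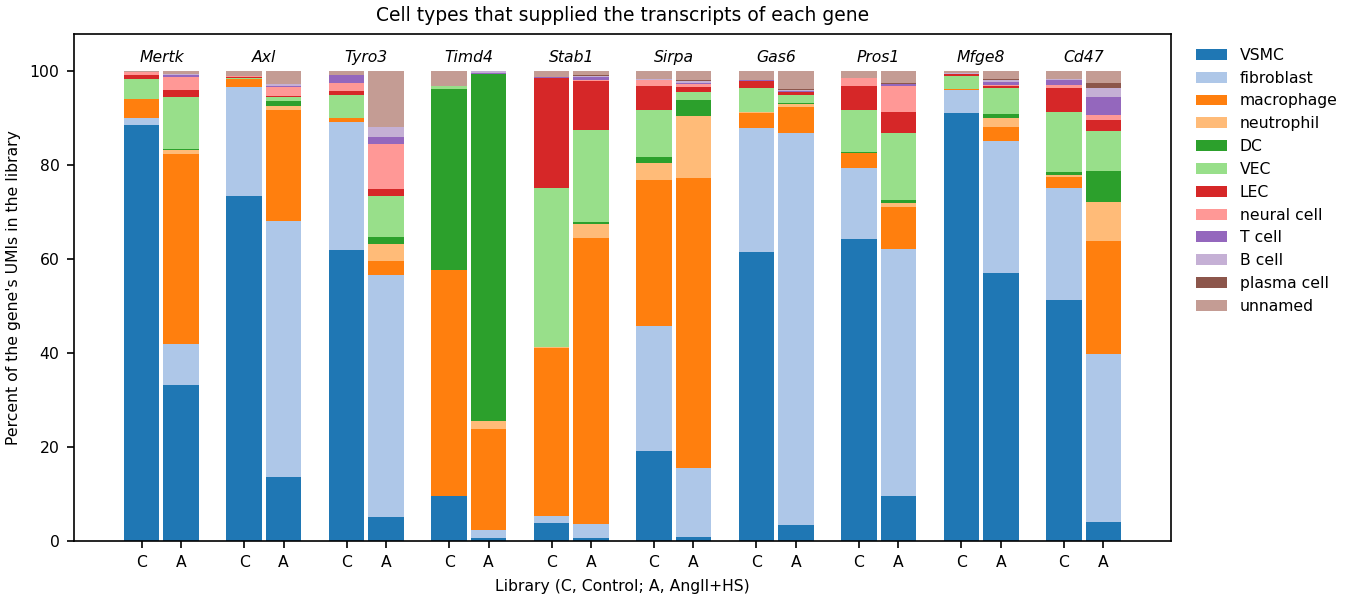
Percent of the UMIs of each gene that came from each cell type, in the Control (C) and AngII+HS (A) libraries. VSMCs make up most of the bar of *Mfge8* in both libraries, and the *Gas6* bar is mostly VSMCs in the Control library and mostly fibroblasts in the AngII+HS library.

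A count of genes past 2-fold was set beside the same count over all genes with at least 20 UMIs in the cell type. In macrophages 4 of 9 genes tested were at least 2-fold lower in the AngII+HS library (*Mertk*, *Gas6*, *Timd4* and *Pros1*) and 0 were at least 2-fold higher, where 17.4% and 11.2% of all 13731 genes were. The median log2 ratio of the 9 was -0.99, and that of all genes -0.11. This count rests on which cells are called macrophages, on their mix and on the scaling. With TMM scaling factors, which were 1.12 in Control and 0.897 in AngII+HS macrophages, *Mertk* was no longer at least 2-fold lower. With the subcluster mix of the Control library 1 gene (*Timd4*) was at least 2-fold lower. When the libraries were merged without integration, a cluster led by *Cd163*, *Slc39a12*, *Mrc1* and *Folr2* (457 Control and 761 AngII+HS cells) received no name, 0 genes were at least 2-fold lower among the macrophages left, and *Mertk* stood there at 18.5 and 52.9 CPM, a log2 ratio of 1.52. In VSMCs 2 of 9 were higher (*Mfge8* and *Stab1*) and 0 lower, beside 8.47% and 8.0% of all genes. Of these, *Stab1* was below the B cell level in the AngII+HS library, and the part of free RNA in it was not tested. In VECs 1 of 8 was lower (*Gas6*) and 0 higher, beside 5.99% and 8.23%. The 1 became 0 with no doublets removed, with equal weight per cell, and at the Control mix of VEC subclusters, where *Gas6* stood at -0.71. In fibroblasts 0 of 9 were past 2-fold in either direction, beside 7.84% higher and 8.48% lower, and in neutrophils 0 of 8, beside 17.4% higher and 10.5% lower. The 99 Control neutrophils limit the last count.

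Another 63 efferocytosis genes were counted in macrophages, of which 59 were tested. At least 2-fold higher were 14 of the 59, and 3 were at least 2-fold lower, beside 11.2% and 17.4% of all genes. The subcluster mix was not held constant for these genes. *Thbs1* was among the leading genes of the *Arg1* subcluster (3 Control and 1737 AngII+HS cells), and *Trem2* led another that had 23 and 486 cells. Among the other engulfment receptors, 6 of 12 were higher and 1 lower. *Trem2*, a lipid receptor, stood at 66.7 and 237 CPM, *Lrp1*, a scavenger receptor, at 205 and 476 CPM, *Cd300lf* at 12.5 and 80.9 CPM and *Itgb5*, an integrin chain that pairs with αv, at 93.1 and 190 CPM. *Marco* had 0 UMIs in Control and 549 in AngII+HS cells (28.0 CPM). *Cd36*, a scavenger receptor for oxidised lipids, was lower, at 1078 and 310 CPM. This group held members on both sides of 2-fold.

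Of the other bridging and opsonin genes, 3 of 8 were higher and 0 lower. *Thbs1*, thrombospondin-1, stood at 316 and 3816 CPM, a log2 ratio of 3.59 (3.48 to 3.70), and *Lgals3*, galectin-3, at 444 and 1856 CPM. The complement gene *C1qb* stood at 1539 and 1533 CPM, within 2-fold. Of the engulfment machinery, 0 of 8 were higher and 1 lower, *Dock1*, at 149 and 53.6 CPM. In the digestion and lipid response group 2 of 10 were higher, the cholesterol exporter *Abcg1* at 19.0 and 109 CPM and the oxysterol receptor LXRα (*Nr1h3*) at 5.09 and 23.6 CPM. Of the restraint signals, 2 of 7 were higher, *Cd24a* at 41.2 and 177 CPM and *Pilra* at 21.3 and 48.0 CPM. None of the 4 genes of receptor shedding, the group for the cutting of MERTK from the surface, was past 2-fold. In the last group 1 of 10 was higher, *Panx1* at 3.24 and 6.52 CPM with an interval that includes 0 on the log2 scale.

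In the other main cell types, 20 of 58 of these genes were at least 2-fold higher in VSMCs and 1 was lower, 12 and 3 of 59 in fibroblasts, 10 and 2 of 54 in VECs, and 9 and 6 of 49 in neutrophils. Of all genes, 8.47% were higher and 8.0% lower in VSMCs, 7.84% and 8.48% in fibroblasts, 8.23% and 5.99% in VECs, and 17.4% and 10.5% in neutrophils, so the neutrophil counts are near those of all genes. *Thbs1* was higher in VSMCs (101 and 669 CPM), fibroblasts (165 and 538 CPM) and VECs (275 and 948 CPM). The counts of VSMCs, fibroblasts and VECs include *C1qa*, *C1qb* and *C1qc*, which stood there at 12.2 to 22.8 CPM in the AngII+HS library, and the neutrophil count includes them at 49.2 to 59.9 CPM. The VSMC count also includes the myeloid genes *Trem2* (13.8 CPM), *Lilrb4a* (8.43 CPM), *Cd300lf* (6.19 CPM), *Pilra* (2.77 CPM) and *Ptpn6* (1.84 CPM). Among fibroblasts such genes were *Lilrb4a* (8.87 CPM), *Trem2* (4.08 CPM), *Cd300lf* (3.79 CPM), *Msr1* (2.43 CPM), *Marco* (1.99 CPM) and *Pilra* (1.95 CPM). Among VECs they were *Lilrb4a* (11.6 CPM), *Cd300lf* (4.85 CPM) and *Trem2* (2.91 CPM). *Lgals3* is in the counts of VSMCs (99.8 CPM), fibroblasts (105 CPM) and VECs (34.4 CPM). The part of free RNA in all of these was not tested. *Itgav*, the αv integrin chain that receives MFG-E8, was highest in macrophages among the main cell types, at 484 and 648 CPM. It stood at 404 and 275 CPM in fibroblasts, at 130 and 296 CPM in VECs and at 200 and 175 CPM in VSMCs.

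The genes most like each member over the cell types were found from 20 points, the cell types of each library with at least 50 cells, among 12338 genes. These correlations are descriptions over points that share libraries. *Mertk* was closest to *Pdgfa* (Pearson r 0.96) and *Hbegf* (0.93), and *Mfge8* to *Fhl1* (0.95), *Mustn1* (0.94) and *Nupr1* (0.93). *Timd4* was closest to *Cd209a* (0.97), *Dcstamp* (0.93) and *Mgl2* (0.92), over points that leave out the Control DCs. Among single DCs *Cd209a* did not go with *Timd4*. It was found in 14.8% of AngII+HS DCs with a *Timd4* UMI and 27.7% of those without, and in 22.2% and 37.5% in Control. *Gas6* was closest to *Colec12* (0.92), *B3galnt1* (0.90) and *Rnase4* (0.87), and *Axl* to *Vcan* (0.91), *Lrp1* (0.91) and *Mt1* (0.88). *Stab1* was closest to *Parvb* (0.92), *Tal1* (0.88) and *Rgl2* (0.88), *Pros1* to *Dst*, *Upp2* and *6720407P12Rik* (0.96, 0.96 and 0.95), and *Sirpa* to *Slc8b1* (0.91), *Cyfip1* (0.89) and *Marcks* (0.89). *Cd47*, at most 0.86 with *Plscr1*, and *Tyro3*, at most 0.88 with *Cyp2d22*, had lower values. Among the 10 genes themselves the highest value was that of *Mertk* and *Pros1* (0.82), and the receptor and ligand pair *Sirpa* and *Cd47* was not close.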

How the data were processed

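Single-cell suspensions of abdominal aorta from 1 Control and 1 AngII+HS library were measured by 3' droplet RNA sequencing with unique molecular identifiers. The deposited matrices hold counts of UMIs per gene and cell barcode, not normalized, made by the authors with Cell Ranger (8.0.1 per the file headers; the labels name the build mm10, the methods of the study GRCm39). There were 0 columns of other samples. The members and gene lists were chosen with earlier results of these data known.

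Barcodes were kept from 500 UMIs and 200 genes upwards where mitochondrial UMIs made up no more than 20%, and the highest Scrublet scores were removed as doublets at 0.8% per 1000 cells (1019 Control and 4826 AngII+HS cells), as run in scanpy 1.11.5. Libraries were integrated in Seurat 5.3.0 (2000 variable genes without the 10 members and the 63 other efferocytosis genes, 30 components, resolution 0.8; 20 components and resolution 0.4 for macrophages and VECs). Clusters were named from fixed marker lists, so a difference from the cell types of the study may come from rebuilt names. Counts were summed per library and cell type and given as CPM. Levels have exact Poisson intervals, shares exact binomial intervals and ratios conditional binomial intervals, all at 95% and for counting error only. With 1 library per condition no test was run. A gene was counted as past 2-fold where it had at least 20 UMIs in the cell type over both libraries, and genes with 0 UMIs in 1 library were set at the bound of 3 counts. All 10 members are described. Other efferocytosis genes are named in macrophages where they had at least 100 UMIs and were past 2-fold, and in other cell types as examples, and the 3 genes most like each member by Pearson correlation of log2(CPM + 1) are named. Some genes that these rules select are not reported here. Shares were also given after thinning each cell to 1000 UMIs. The ratio script was checked on simulated counts. Positions are from GENCODE vM39 (GRCm39), which matched 33185 of the 33696 gene IDs, and promoters from RefSeq (GRCm38.p6). TMM factors came from edgeR 4.0.16.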

Additional observations from a re-analysis of the deposited data

Results flagged for a closer look

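In 4 genes the log2 ratios (AngII+HS over Control) of 2 main cell types lay on opposite sides of 0, each past 0.5 and with a counting interval that leaves out 0. With 1 library per condition the difference between the cell types was not tested. For *Gas6*, fibroblasts (0.89) stood 2.50 above macrophages (-1.61). For *Stab1*, VSMCs (1.89) stood 2.89 above macrophages (-0.99), and the VSMC level of 5.40 CPM in the AngII+HS library was below that of B cells (8.23 CPM). With the Control mix of subclusters macrophage *Gas6* was -0.31 and macrophage *Stab1* -0.53, and *Stab1* was 0.85 there when the libraries were merged without integration. For *Mfge8*, VSMCs (1.12) stood 1.77 above VECs (-0.65). For *Cd47*, macrophages (0.64) stood 1.21 above VECs (-0.57). At the Control mix *Mfge8* in VECs was -0.30, and *Cd47* was 0.40 in macrophages and -0.38 in VECs. In the pairs named, *Gas6*, *Mfge8* and *Cd47* were then no longer past 0.5 in both cell types, and the directions were unchanged. *Gas6* in VECs, however, was -0.71 at the Control mix, still past 0.5 and opposite in direction to fibroblasts.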

How the results depend on the processing

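No paired analysis was possible because each group has 1 library. The alternatives changed doublet removal, the cell filter, integration, resolution, the genes used to cluster, the scaling and the count filter, and, chosen after seeing the data, the subcluster mix. The leading cell type was the same for at least 9 of the 10 genes. Merging without integration reversed *Mertk* in macrophages (log2 ratio 1.52), with 1 gene at least 2-fold higher there in place of 0, 0 lower in place of 4, and 9 other efferocytosis genes higher in place of 14. A cluster led by *Cd163* and *Folr2* was then unnamed and outside the macrophages, and *Stab1* stood at 0.85 in place of -0.99. With no doublets removed, the genes at least 2-fold higher were 4 in VSMCs, 2 in fibroblasts, 1 in neutrophils and 1 in VECs, and 0 were lower in VECs. Resolution 0.4 gave 1 lower in VSMCs and 1 in fibroblasts. Equal weight per cell gave 1 higher in fibroblasts and 0 lower in VECs. TMM factors gave 2 higher in fibroblasts and 1 in neutrophils, and the stricter filter 1 higher in neutrophils. With TMM factors *Mertk* in macrophages was no longer past 2-fold. In the leading cell types 3 of the 4 ratios past 2-fold then stayed past it, and 17 of 19 ratios kept their sign. With the Control subcluster mix, 1 was lower in macrophages and 0 in VECs. The cause of these changes was not tested. The log2 ratio of *Mfge8* in VSMCs stayed between 1.04 and 1.27 and that of *Gas6* in fibroblasts between 0.69 and 1.12 under the alternatives run. These did not include the Control mix of clusters, which was applied to macrophages and VECs only. The 99 Control neutrophils and 25 Control DCs limit the values of those cell types.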
